A study of Mus musculus with 4 samples.

Results

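Testes of mouse embryos exposed in the womb to ibuprofen plus acetaminophen were compared with control testes at stage E13.5. The deposited table of this comparison holds 185 assembled transcripts of the 382 found in the authors' 6 deposited tables, and all 185 rows were taken. They are the transcripts the authors called different between the Control and IBU+ACE libraries. The embryos were wild-type CD1 animals. Their gonads were freed of the mesonephros, the transient embryonic kidney beside them. The Control library carries the treatment label none, and its in-file name is EtOH. The IBU+ACE library carries the label for ibuprofen and acetaminophen. The remaining libraries are ACE+ACE (acetaminophen) and ASP+ACE (aspirin and acetaminophen), and their values are given beside those of the members where another deposited table holds the same transcript. Nothing in the sources used here gives the doses, the days of exposure or the number of embryos behind a library.

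Each of the 4 groups is 1 library. Differences between groups therefore have no replicate check, and no test, error or p-value can be given for them. The deposited values of the authors were read as FPKM, that is fragments per kilobase of transcript scaled to the mapped fragments. The number of fragments behind them is unknown, so no interval or detection limit is given. The words rose and fell are used for rows that the authors' deposited table lists, always of IBU+ACE against Control. All rows of that table carry a p-value of 5e-05 and a q-value of 0.0310, as the authors' deposited table gives them, so these cannot order the members. Fold changes are IBU+ACE over Control, recomputed from both values, and a number in brackets after a gene's values is that fold change on the log2 scale. Where 4 values follow each other, they are those of Control, then ACE+ACE, then ASP+ACE, then IBU+ACE.

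The fetal testis forms when Sertoli cells, the supporting cells, enclose the germ cells in cords while Leydig cells outside the cords begin to make androgen. Male germ cells at this stage leave a pluripotent state kept by genes such as Sox2 and by Nodal signalling, stop dividing, and turn on the genes that methylate DNA and silence transposons. Ibuprofen and aspirin block the cyclooxygenases that make prostaglandins, and prostaglandin D2 is known to help Sertoli cell differentiation in the mouse.

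Of the 185 transcripts, 151 were higher in IBU+ACE than in Control (81.6% of the listed transcripts) and 34 were lower (18.4%). A gene name was given for 123, of which 104 rose and 19 fell. The other 62 had no name, with 47 higher and 15 lower. A fold could be formed for 155 transcripts, since 24 were listed at 0 in Control and 6 at 0 in IBU+ACE. The median log2 fold change was 1.71 among the 127 higher transcripts with a fold, ranging from 0.52 to 7.33. Among the 28 lower ones it was -1.36, ranging from -3.34 to -0.58. At least a 2-fold rise was seen for 98 transcripts (53.0% of the listed ones) and at least a 2-fold fall for 18 (9.73%). At least an 8-fold difference was reached by 20 higher and 3 lower transcripts. How many transcripts the authors tested without a call is not known here, so these shares describe the listed rows only.

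**Figure D1:**
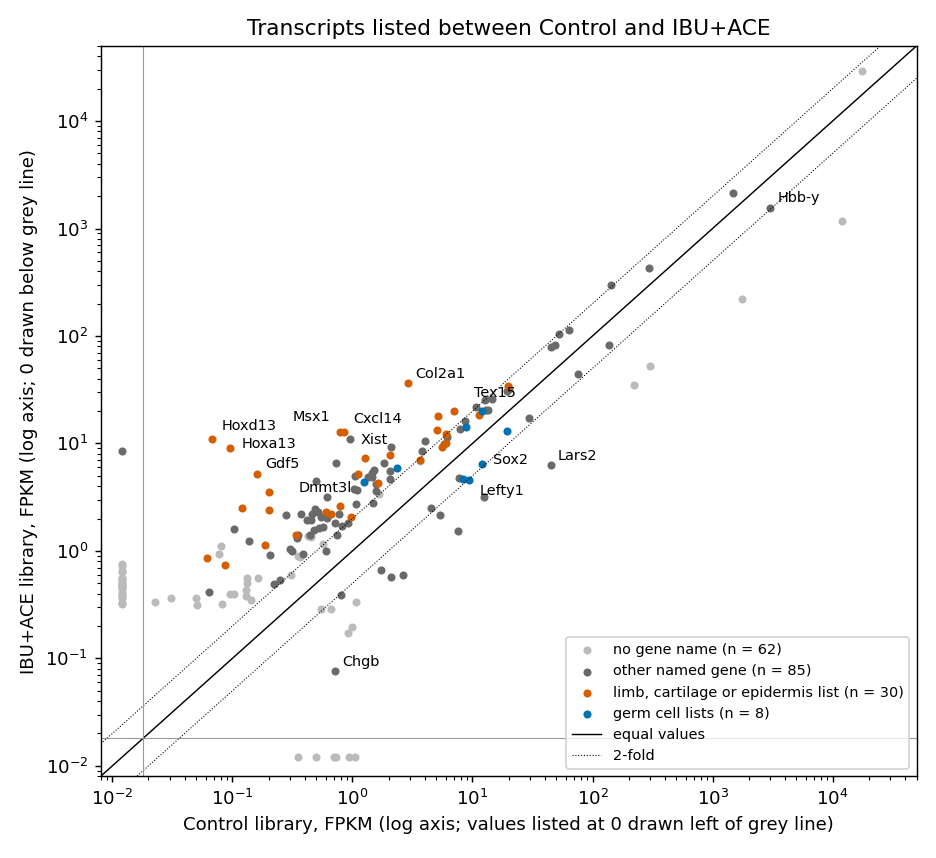
Each point is 1 of the 185 transcripts, with its FPKM in the Control library on the horizontal log axis and in the IBU+ACE library on the vertical log axis. Limb, cartilage and epidermis genes (orange) lie above the line of equal values, the farthest being Hoxd13 at 0.0680 and 10.95 FPKM, and the points beyond the grey lines are transcripts listed at 0 in 1 library.

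All 4 libraries have a value for 103 of the 185 transcripts. A value in ACE+ACE or ASP+ACE exists only where another table lists the transcript, in part against the same IBU+ACE library. Which library is highest is thus largely set by how these rows were selected, and the counts and medians that follow are a description with nothing read from them. Among the 89 higher transcripts with 4 values IBU+ACE was the highest library in 88. Over the 85 of these with a fold, the median log2 fold change from Control was 1.86 for IBU+ACE, -0.17 for ACE+ACE and -0.12 for ASP+ACE. Among the 14 lower transcripts with 4 values Control was the highest library in 10 and IBU+ACE the lowest in 8. Their median log2 fold change from Control was -2.45 for IBU+ACE (12 with a fold), -2.64 for ACE+ACE (13) and -1.65 for ASP+ACE (14). Xist, a long RNA that silences the X chromosome it is made from, had 0.954 FPKM in Control, 0.710 with ACE+ACE, 0.668 with ASP+ACE and 11.1 with IBU+ACE. Its log2 fold change of 3.54 was among the largest, and its deposited locus (chrX:103414467-103484957) spans 7 annotated genes, its antisense partner Tsix among them. Xist was the only listed gene of the sex chromosome list, and 0 are left when loci with more than 1 annotated gene are dropped. Genes of limb, cartilage and epidermis, which are tissues outside the gonad, moved in the same library and are described below. The part of any of these in the other results was not tested. In RNA from a whole organ, fewer cells of a type and less RNA per cell cannot be told apart.

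The members were read against 27 gene lists. Of the 123 named genes, 59 belong to at least 1 list and 64 to none. The lists with the most listed genes were cartilage and skeletal matrix with 13 of 49 genes, HOX and limb-patterning homeobox with 9 of 72, and epidermis with 8 of 54, all of them higher. Germ cell genes were listed in both directions. Of the pluripotency and Nodal list 3 of 36 fell and 0 rose, and of the male germ cell and transposon silencing list 4 of 39 rose and 0 fell. Among all 123 named genes 104 rose, so rises alone do not set a list apart by direction. A further 8 lists have no gene in this table. They are Leydig cell and steroidogenesis, prostaglandin synthesis and receptors, drug metabolism, muscle, endothelium, cell cycle, immediate early and stress, and mitochondrially encoded genes. Absence from the table means no call, or no test, and by itself gives no value for the difference. For a few genes of these lists other deposited tables hold both values. Myh3 of the muscle list had 4.46 FPKM in Control and 4.54 in IBU+ACE. In the drug metabolism list Mt1 had 29.9 and 30.1 FPKM, and Mt2 had 16.3 and 16.6 FPKM, in the same libraries. Actc1 and Myod1 of the muscle list have no Control value used here.

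**Figure D2:**
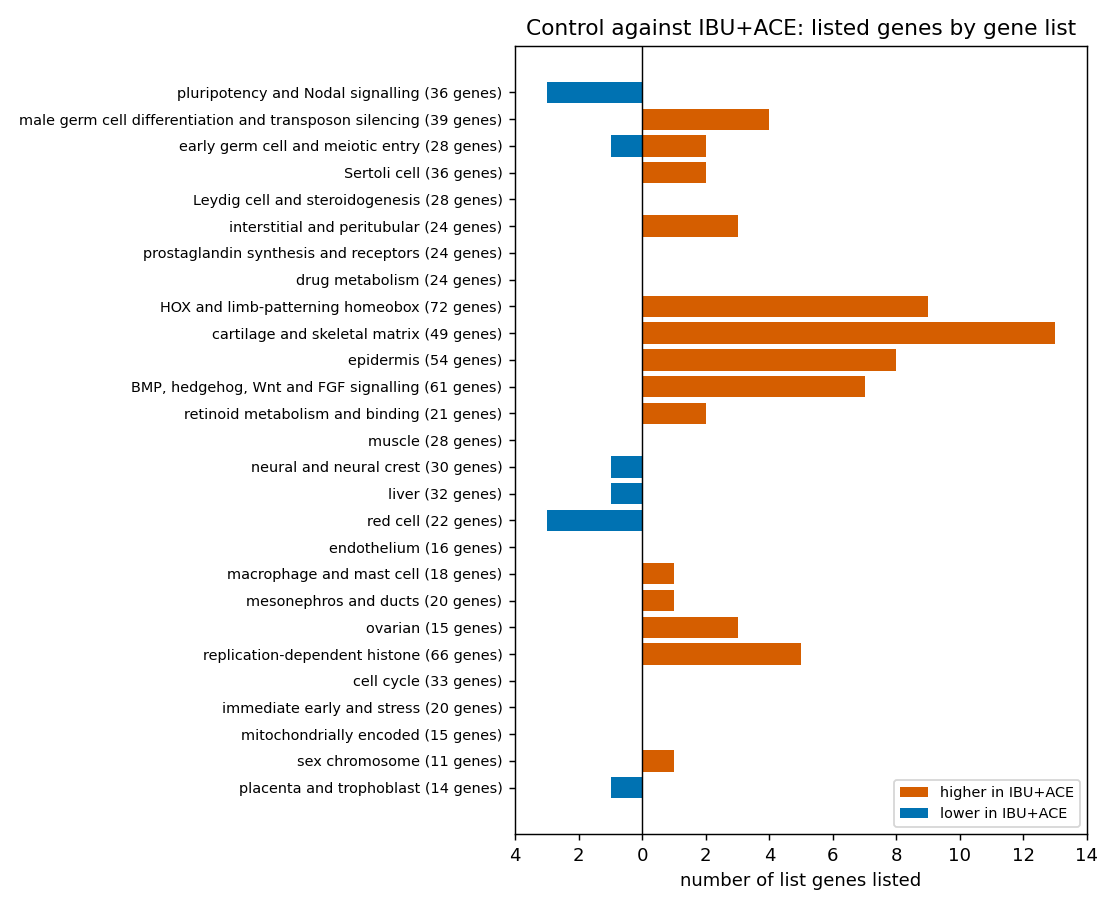
Bars count the genes of each list in the table of Control against IBU+ACE, to the right for genes higher in IBU+ACE and to the left for genes lower, with the size of the list in brackets. Cartilage (13), HOX and limb (9) and epidermis (8) genes stand on the right only, and pluripotency and red cell genes (3 each) on the left only. Among all 123 named genes 104 are higher.

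The 3 listed genes of the pluripotency and Nodal list fell in IBU+ACE. Lefty1 (chr1:180935022-180938400), a secreted inhibitor of Nodal that is itself turned on by Nodal signalling, had 9.37 FPKM in Control, 11.04 with ACE+ACE, 8.41 with ASP+ACE and 4.53 with IBU+ACE, a log2 fold change of -1.05. Its lowest value was thus in IBU+ACE, with the other 3 libraries between 8.41 and 11.04 FPKM. Sox2, a core pluripotency factor, had 12.0 FPKM in Control and 6.39 in IBU+ACE (-0.91). The deposited Sox2 locus (chr3:34104270-34682619) covers 15 annotated genes, and reads of these may be part of the value. Podxl (chr6:31519409-31563981), a sialomucin of the surface of pluripotent cells and of several epithelia, had 19.4 and 13.0 FPKM (-0.58), the smallest fall among listed transcripts with a fold. The 3 genes summed to 40.8 FPKM in Control and 23.9 in IBU+ACE.

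Sohlh2 (chr3:55182028-55209957), a transcription factor of early germ cells from the early germ cell and meiotic entry list, fell as well. It had 8.30 FPKM in Control, 8.37 in ACE+ACE and 4.71 in IBU+ACE (-0.82). Msx1 and Msx2, the other listed genes of that list, rose and are described with the limb genes, where they also belong. Tex13 (chrX:140808305-140813484, annotated as Tex13b), a germ cell gene outside the lists and chosen after its value was seen, had 4.54 FPKM in Control and 2.52 in IBU+ACE (-0.85). Further pluripotency genes have an IBU+ACE value from another table and are not listed against Control. Lefty2, the neighbouring Nodal inhibitor, had 11.7 FPKM in ACE+ACE and 7.37 in IBU+ACE. Dppa5a, an RNA-binding protein of pluripotent cells, had 95.5 FPKM in ASP+ACE and 55.4 in IBU+ACE. No Control value was used for either.

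The 4 listed genes of the male germ cell list rose. Dnmt3l (chr10:78030022-78063622), the catalytically inactive partner of the enzymes that methylate DNA anew in male germ cells, had 1.24 FPKM in Control, 0.619 in ACE+ACE and 4.41 in IBU+ACE, a log2 fold change of 1.83. The locus also covers Aire. With such loci of more than 1 annotated gene dropped, 2 of the 4 genes are left. Tdrd9 (chr12:111971484-112068854, also covering Rd3l), a helicase needed for piRNAs to silence transposons, had 2.37, 2.64 and 5.94 FPKM in the same libraries (1.33). Tex15 (chr8:33516611-33594235), which acts with the piRNA pathway in transposon methylation, had 11.9 FPKM in Control and 19.9 in IBU+ACE (0.74). Morc1 (chr16:48431237-48630905), an ATPase that silences transposons in the male germ line, had 8.84 FPKM in Control, 8.24 in ACE+ACE and 14.2 in IBU+ACE (0.69). The median log2 fold change of these 4 genes was 1.03, against 1.71 for all higher transcripts with a fold, and 3 of the 4 lay below the latter. Summed, they had 24.4 FPKM in Control and 44.4 in IBU+ACE. Nxf2 (chrX:134944526-134964754), an RNA export factor of germ cells outside the lists and chosen after its value was seen, had 1.82 FPKM in Control, 2.58 in ACE+ACE and 6.54 in IBU+ACE (1.84). Of this list, Tex101 had 4.83 FPKM in ACE+ACE and 8.67 in IBU+ACE, and Tex19.1 had 44.6 in ASP+ACE and 30.4 in IBU+ACE, both without a Control value used here.

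**Figure D3:**
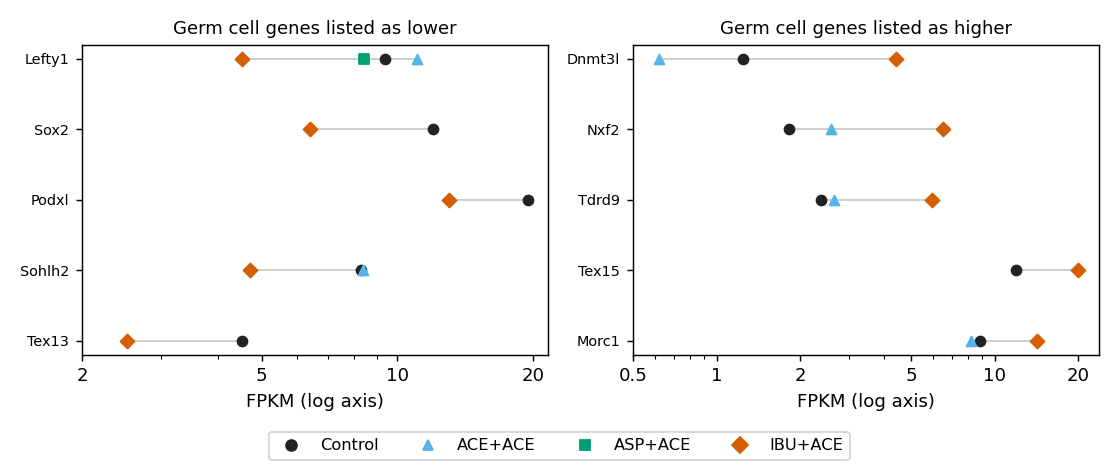
FPKM of germ cell genes on a log axis in each library that has a value, with fallen genes on the left and risen genes on the right. IBU+ACE (diamonds) is the lowest value of each fallen gene (4.53 FPKM for Lefty1) and the highest of each risen gene (4.41 FPKM for Dnmt3l). Sox2, Podxl, Tex13 and Tex15 have values in Control and IBU+ACE only, so for them this restates the authors' call. For the others the order is largely set by how rows were selected.

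The stretches of 250 bases before the start sites of Dnmt3l, Tdrd9 and Nxf2 are shown because they share short matches. Dnmt3l and Tdrd9 had the larger folds of the male germ cell list, and Nxf2 had a fold near that of Dnmt3l. They are RefSeq sequences on GRCm38.p6, read 5′ to 3′ along the gene, and capitals mark CACGTG, a letter string of the E-box type that reads alike on both strands. The Dnmt3l stretch is chr10:78049592-78049841 on the plus strand, before the start site with a match among the 3 that RefSeq gives for the gene. The Tdrd9 stretch is chr12:111971309-111971558 on the plus strand, and the Nxf2 stretch is chrX:134964755-134965004 on the minus strand.
Dnmt3l: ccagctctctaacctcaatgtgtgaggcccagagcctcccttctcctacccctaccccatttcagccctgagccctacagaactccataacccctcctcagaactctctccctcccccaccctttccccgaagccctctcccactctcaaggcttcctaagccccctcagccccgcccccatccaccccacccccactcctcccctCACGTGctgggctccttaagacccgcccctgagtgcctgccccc
Tdrd9: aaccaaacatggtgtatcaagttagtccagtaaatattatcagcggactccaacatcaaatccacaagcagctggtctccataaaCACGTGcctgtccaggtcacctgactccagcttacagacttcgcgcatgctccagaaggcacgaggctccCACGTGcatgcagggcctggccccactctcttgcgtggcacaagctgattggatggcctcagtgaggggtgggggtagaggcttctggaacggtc
Nxf2: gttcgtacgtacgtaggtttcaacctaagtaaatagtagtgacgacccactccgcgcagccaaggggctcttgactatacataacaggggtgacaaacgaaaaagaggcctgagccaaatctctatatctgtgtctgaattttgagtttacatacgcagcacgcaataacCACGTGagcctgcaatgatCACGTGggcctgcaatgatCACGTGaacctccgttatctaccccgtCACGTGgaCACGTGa
CACGTG occurs 1 time in the Dnmt3l stretch, 2 times in that of Tdrd9 and 5 times in that of Nxf2. Counting every RefSeq start site, 3 of the 6 sites of these genes hold it, and 0 of the 2 sites of Sox2 and Sohlh2. The genes shown were picked for the match, so these counts are no comparison. Tex15, Morc1, Lefty1, Podxl and Tex13 had no start site to count. Across 32851 mouse start sites 6.02% hold the letters within 250 bases. Among the start sites of listed genes it was 6 of 68 for genes that rose (8.82%) and 0 of 10 for genes that fell. The letters and the genes shown were chosen with the values in view, and a match is a description of the sequence only.

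The other strings were searched on both strands, and their shares among risen genes lay near or below those of all start sites. GCGGGAA was found at 2.94% of the sites of risen genes against 3.82% of all sites, CAATAAA at 1.47% against 4.2%, TGTNNATT at 7.35% against 10.9%, and TATAAA at 13.2% against 12.4%. The median number of CpG dinucleotides per 250 bases was 13 at the 68 sites of risen genes and 6 over all sites. It was 2.5 at the 10 sites of genes that fell. Those 10 sites belong to 9 genes and were split, with 27 for Sox2, 26 for Chgb, 15 for Lars2 and 14 for Sohlh2. Apoa4, Hba-x, Hbb-y, Prl3b1 and Cmah had 1 to 3. Sites of risen genes ran from 0 (Col9a1) to 50 (Gas2), so the medians do not describe single genes. Only 67 of the 123 named genes had a start site in the RefSeq table.

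The 2 largest rises were those of homeobox genes of the limb and tail. Hoxd13 (chr2:74668310-74671599), which patterns digits and the genital tubercle, had 0.0680 FPKM in Control, 0.0821 in ASP+ACE and 10.95 in IBU+ACE, a log2 fold change of 7.33. Hoxa13 (chr6:52257694-52260880), its counterpart in the HoxA cluster, had 0.0961 FPKM in Control, 0.323 with ACE+ACE, 0.224 with ASP+ACE and 9.13 with IBU+ACE (6.57). Outside IBU+ACE every value of both genes was 0.323 FPKM or less. With 1 FPKM added to both values their log2 fold changes were 3.48 and 3.21, since folds over such low values depend on small differences. Next to Hoxd13, the transcript Gm28309 (chr2:74673916-74697586), whose locus also covers Hoxd10, Hoxd11 and Hoxd12, had 0.373 FPKM in Control, 0.421 with ACE+ACE, 0.385 with ASP+ACE and 2.22 with IBU+ACE (2.57).

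Msx1 (chr5:37820485-37824583), a homeobox gene of limb bud and craniofacial mesenchyme that is also named in lists of germ cell and ovarian genes, had 0.788 FPKM in Control, 0.659 with ACE+ACE, 0.676 with ASP+ACE and 12.7 with IBU+ACE (4.01). Msx2 (chr13:53466884-53473074), a relative of Msx1 that acts downstream of BMP signals, had 0.603 FPKM in Control, 0.868 in ASP+ACE and 2.31 in IBU+ACE (1.94). Both genes were highest in IBU+ACE and lay near the Control level in the remaining libraries with a value. Irx1 (chr13:71954854-71963723) and Irx5 (chr8:92357796-92361456) are homeobox genes of limb and heart patterning. For Irx1 the values were 0.121 FPKM in Control, 0.161 in ACE+ACE and 2.52 in IBU+ACE (4.38). For Irx5 they were 0.200, 0.209 and 0.147 FPKM in Control, ACE+ACE and ASP+ACE and 2.41 in IBU+ACE (3.59). Lmx1b (chr2:33560965-33640511), which specifies the dorsal side of the limb, stayed below 1 FPKM in every library, with 0.0611, 0.0339, 0.0290 and 0.852 FPKM (3.80).

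The other 2 listed genes of this list had its smallest folds. Twist1 (chr12:33957671-33963506), a transcription factor of mesenchyme and neural crest, had 5.196 FPKM in Control, 3.74 with ACE+ACE, 4.30 with ASP+ACE and 17.9 with IBU+ACE (1.79). Tbx18 (chr9:87702800-87732356), a T-box factor of ureter and limb mesenchyme, had 0.789, 0.657, 0.529 and 2.64 FPKM (1.74). All 9 listed genes of the list were at least 2-fold higher, with a median log2 fold change of 3.80. Their sum went from 7.92 FPKM in Control to 61.5 in IBU+ACE. Osr1 (chr12:9574442-9581499), the only listed gene of the mesonephros list and active in limb and kidney mesenchyme, had 1.45, 1.32, 1.49 and 4.89 FPKM (1.75).

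The stretches before Hoxa13, Hoxd13 and Msx1 are shown because these genes carry the highest IBU+ACE levels among the risen homeobox genes. Capitals mark CACGTG and TATAAA. They are RefSeq sequences on GRCm38.p6 at chr6:52260881-52261130 on the minus strand, chr2:74667975-74668224 on the plus strand and chr5:37824586-37824835 on the minus strand.
Hoxa13: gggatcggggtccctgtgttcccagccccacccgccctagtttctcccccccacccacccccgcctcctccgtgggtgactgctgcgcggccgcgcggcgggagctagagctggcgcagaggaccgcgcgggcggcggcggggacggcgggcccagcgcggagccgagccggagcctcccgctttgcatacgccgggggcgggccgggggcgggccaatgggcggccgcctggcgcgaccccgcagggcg
Hoxd13: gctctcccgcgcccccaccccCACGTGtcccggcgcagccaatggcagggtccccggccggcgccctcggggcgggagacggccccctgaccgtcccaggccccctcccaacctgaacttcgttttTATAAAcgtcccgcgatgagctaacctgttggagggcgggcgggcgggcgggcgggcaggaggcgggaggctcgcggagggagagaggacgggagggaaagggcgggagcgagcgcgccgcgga
Msx1: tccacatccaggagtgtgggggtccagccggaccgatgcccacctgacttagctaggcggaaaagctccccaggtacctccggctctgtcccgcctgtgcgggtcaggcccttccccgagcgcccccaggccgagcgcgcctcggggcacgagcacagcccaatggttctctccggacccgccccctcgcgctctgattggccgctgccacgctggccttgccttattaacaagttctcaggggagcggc
The Hoxd13 stretch holds 1 CACGTG and 1 TATAAA match, and the Hoxa13 and Msx1 stretches hold 0 of either. CpG dinucleotides number 35 before Hoxa13, 31 before Hoxd13 and 20 before Msx1, above the median of 6 over all start sites. The germ cell stretches hold 4 (Dnmt3l), 8 (Tdrd9) and 16 (Nxf2).

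Of the 49 cartilage and matrix genes 13 rose, and their median log2 fold change was 1.94. Gdf5 (chr2:155940728-155945423), a BMP-family growth factor of forming joints, had 0.159 FPKM in Control, 0.174 with ACE+ACE, 0.0916 with ASP+ACE and 5.25 with IBU+ACE (5.04). Col2a1 (chr15:97975602-98004703), the main collagen of cartilage, had 2.92, 2.25, 1.10 and 36.3 FPKM (3.64). It was the highest IBU+ACE level among these genes. Col9a1 (chr1:24164442-24252684), which coats the fibrils of that collagen, had 2.05, 1.54, 1.07 and 7.83 FPKM (1.94). Col11a2 (chr17:34038608-34066814), a further fibril component, had 0.340 FPKM in Control, 0.226 in ASP+ACE and 1.40 in IBU+ACE (2.04), and Col11a1 (chr3:114028487-114220718) had 6.04, 5.88, 5.31 and 12.1 FPKM (1.01). All 4 of these collagen genes rose, by different folds. Acan (chr7:79018053-79115099), the large aggregating proteoglycan aggrecan, had 0.185 FPKM in Control and 1.13 in IBU+ACE (2.61). Matn3 (chr12:8947929-8972028), a cartilage matrix adaptor, stayed below 1 FPKM throughout, at 0.0873, 0.137, 0.0850 and 0.743 FPKM (3.09).

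Kera (chr10:97607205-97613688) and Lum (chr10:97565426-97572705) are neighbouring genes for the small leucine-rich proteoglycans keratocan and lumican. Kera had 0.203, 0.0734, 0.125 and 3.53 FPKM (4.13). Lum, also in the interstitial cell list, had 11.3 FPKM in Control, 9.02 in ACE+ACE and 18.6 in IBU+ACE (0.72). The fold thus differed widely between these neighbours, Lum having started from the higher level. The rest of the group had moderate folds. Vcan (versican, in a locus of 7 genes) had 19.7 FPKM in Control and 34.0 in IBU+ACE (0.79). Col12a1, a collagen of dense connective tissue, had 5.61 FPKM in Control, 4.74 in ACE+ACE and 9.31 in IBU+ACE (0.73). Gdf10, a BMP-family protein, had 3.67, 2.61, 2.65 and 7.01 FPKM (0.93). Over the 13, the sum was 58.2 FPKM in Control and 147 in IBU+ACE.

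Of the 54 epidermal genes 8 rose, and their median log2 fold change was 1.64. Krt5 (chr15:101707070-101712891) and Krt14 (chr11:100203162-100210542) encode the paired keratins of the basal layer of skin. Krt5 had 1.27 FPKM in Control, 0.818 with ACE+ACE, 1.003 with ASP+ACE and 7.35 with IBU+ACE (2.53). Krt14 had 1.62, 1.35, 1.11 and 4.29 FPKM (1.41). Krt15 (chr11:100131758-100135928), another basal keratin next to Krt14, had 0.658, 0.507, 0.535 and 2.21 FPKM (1.75). All 3 keratins were highest in IBU+ACE and lowest in ACE+ACE or ASP+ACE. Perp (chr10:18845071-18857073), a desmosome protein of layered epithelia, had 1.11, 0.749, 1.04 and 5.16 FPKM (2.22). Cxcl14 (chr13:56288647-56296551), a chemokine made in skin and in several other tissues, had the largest fold of the group, with 0.855 FPKM in Control, 0.447 with ACE+ACE, 0.386 with ASP+ACE and 12.9 with IBU+ACE (3.91).

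Crabp1 (chr9:54764748-54773110) and Crabp2 (chr3:87948666-87953376), the cellular retinoic acid binding proteins, stand in both the epidermis and the retinoid list. Crabp1 had 5.03, 3.75, 4.13 and 13.3 FPKM (1.40), and Crabp2 had 6.98, 5.69, 6.65 and 20.1 FPKM (1.52). They were the 2 listed genes of the 21 in the retinoid list, with no enzyme of retinoic acid synthesis or breakdown beside them. Summed, the 8 epidermal genes had 18.5 FPKM in Control and 67.3 in IBU+ACE. Some genes of stratified epithelia outside the list were chosen for mention after their values were seen. Gabrp, a GABA receptor subunit found in epithelia, had 0.724, 0.382, 0.324 and 6.58 FPKM (3.18). Trim29, Ppl (periplakin) and Tmem30b had between 0.205 and 0.527 FPKM in Control and between 0.917 and 1.64 FPKM in IBU+ACE.

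**Figure D4:**
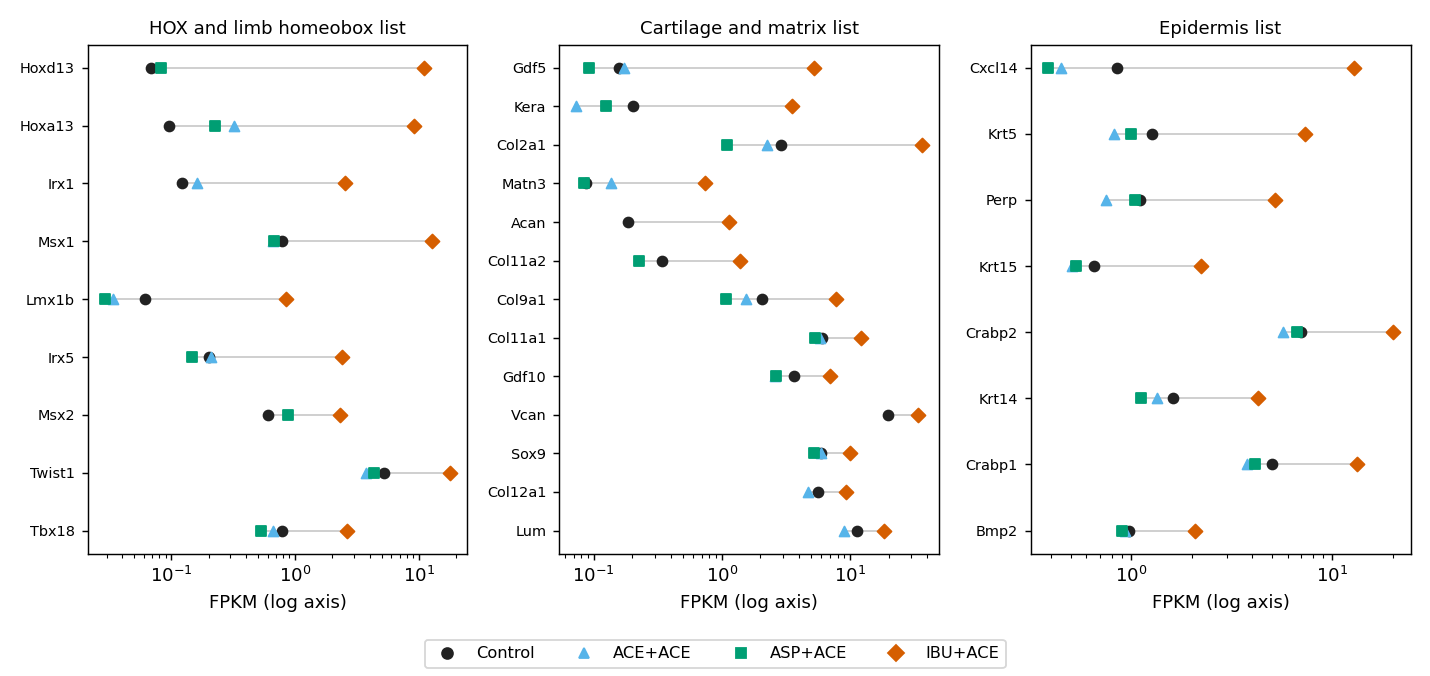
FPKM on log axes of the listed HOX and limb (left), cartilage (middle) and epidermis (right) genes in each library that has a value, ordered by fold. IBU+ACE (diamonds) is to the right of every other library for each gene, from 0.743 FPKM for Matn3 to 36.3 FPKM for Col2a1. All are rows listed as higher in IBU+ACE, so this order is largely set by how they were selected.

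Signalling genes of the BMP, hedgehog, Wnt and FGF pathways rose in 7 of 61 cases, 2 of which, Gdf5 and Bmp2, are secreted BMP-family ligands. The 7 became 4 with at most 1 annotated gene per locus. Bmp2 (chr2:133552159-133564322) had 0.979, 0.937, 0.897 and 2.09 FPKM (1.09). It is also in the epidermis and ovarian lists. Among secreted inhibitors, Nog (noggin, which binds BMPs; chr11:89300638-89302332) had 0.519, 0.619, 0.598 and 2.29 FPKM (2.14). Dkk2 (chr3:132085247-132180304), a modulator of Wnt receptors, had 1.05, 0.765, 0.775 and 5.02 FPKM (2.26). The Wnt-binding proteins Wif1 and Sfrp2 rose too. Wif1 (chr10:121033960-121100853) had 1.02, 0.850, 0.812 and 3.79 FPKM (1.89). Sfrp2 (chr3:83766321-83789956) had 12.7, 12.4, 13.3 and 25.5 FPKM (1.01). Thus 4 of the 7 listed genes encode secreted inhibitors or modulators of BMP or Wnt signals. Gli3 (chr13:15440302-15730026), the transcription factor that represses hedgehog targets, had 1.48, 1.54, 1.49 and 2.76 FPKM (0.90). Bmpr1b, a BMP receptor outside the list, had 0.478, 0.506, 0.470 and 1.58 FPKM (1.72).

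Sertoli cell genes appeared as 2 of 36, both higher and both below a 2-fold change, and 1 of them is left with at most 1 annotated gene per locus. Sox9 (chr11:112782224-112787760), the transcription factor that sets Sertoli fate and is also the master regulator of cartilage, had 5.98 FPKM in Control, 5.97 with ACE+ACE, 5.22 with ASP+ACE and 10.04 with IBU+ACE (0.75). Cst9 (testatin; chr2:148820081-148838738, a locus that also covers Cst13), a cystatin-family gene of early Sertoli cells, had 63.3 FPKM in Control and 113.9 in IBU+ACE (0.85). Sox9 is a gene of both the Sertoli and the cartilage list, and its rise stands beside that of Col2a1, Col9a1 and Acan in the same library. The part of either tissue in it was not tested. Other defining genes of Sertoli, germ and Leydig cells, among them Amh, Ddx4 and Star, are not in the 6 tables and were not analysed here, so the tissue label can be checked against few of its markers.

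The interstitial and peritubular list had 3 of 24 genes higher, Lum and Gli3 among them, and 1 is left with at most 1 annotated gene per locus. Ebf1 (chr11:44610837-45008091), a transcription factor of stromal precursors, had 1.35, 1.22, 1.35 and 4.92 FPKM (1.86). The Leydig list had no listed gene against Control. Vcam1, a surface protein in that list, had 4.33 FPKM with ACE+ACE, 3.98 with ASP+ACE and 8.64 with IBU+ACE, with no Control value used here. The ovarian list had 3 of 15 genes higher, namely Bmp2, Irx5 and Msx1, all of which also belong to other lists used here. The tissue behind their rise was not tested. Cpa3 (chr3:20215620-20242181), a protease of mast cell granules, had 0.300 FPKM in Control, 0.253 in ACE+ACE and 1.05 in IBU+ACE (1.81). It was the only listed gene of the macrophage and mast cell list, and its locus spans more than 1 annotated gene.

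Some genes of mesenchyme and connective tissue outside the lists were likewise chosen for mention after their values were seen. Meox2 (chr12:37108540-37179534), a homeobox gene of somite and limb muscle precursors, had 0.5004, 0.353, 0.437 and 4.49 FPKM (3.17). Susd5, a sushi-domain protein, had 0.139, 0.107, 0.117 and 1.24 FPKM (3.16). The ephrin receptor gene Epha4 had 3.78, 2.91, 2.37 and 8.48 FPKM (1.16). Gas1, a membrane receptor for hedgehog ligands, had 20.03, 15.9, 16.2 and 31.9 FPKM (0.67). Sox11, a transcription factor of progenitor cells, had 19.3, 17.3, 16.8 and 30.5 FPKM (0.66). Gm20471, an antisense transcript in the locus of the limb homeobox gene Prrx1, had 0.618, 0.549, 0.552 and 3.18 FPKM (2.37), and reads of Prrx1 itself cannot be told apart from it, since no source used here says whether counting used strand.

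Embryonic globin genes, 3 in number, fell. Hbb-y (chr7:103851745-103853240), a beta-type globin of primitive red cells, had 3012 FPKM in Control, 2350.3 with ACE+ACE, 1809 with ASP+ACE and 1557 with IBU+ACE (-0.95). Its neighbour Hbb-bh1 had 29.5 FPKM in Control and 17.4 in IBU+ACE (-0.76). Hba-x, the embryonic alpha-type globin, had 138 and 82.3 FPKM (-0.75). These were the 3 listed genes of the 22 of the red cell list. Slc4a1, the anion exchanger of the red cell membrane, had 15.5 FPKM in Control and 14.3 in IBU+ACE. It is not listed between these libraries. Some globin genes are near-identical copies of each other, so the split of reads among such copies is uncertain. How far this touches the 3 genes here was not tested.

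Replication-dependent histone genes, whose mRNAs end in a stem-loop and not in a poly(A) tail, rose in 5 of 66 cases. Hist1h4f (chr13:23551258-23551648) had 142 FPKM in Control, 274 with ACE+ACE, 284 with ASP+ACE and 296 with IBU+ACE (1.06). Hist1h3f (chr13:23544465-23545312) had 52.1, 96.6, 96.1 and 103.9 FPKM (0.996). For both genes Control was the low library and the 3 exposed libraries lay close together. Hist1h4h of the same cluster had 297 FPKM in Control and 432 in IBU+ACE (0.54). Hist4h4 had 45.4 FPKM in Control, 66.7 in ACE+ACE and 78.7 in IBU+ACE (0.79), and Hist2h4 had 10.7 FPKM in Control and 21.7 in IBU+ACE (1.03). No cell cycle gene of the list of 33 was in the table. Histone genes have near-identical copies, so their values are uncertain.

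The 19 named genes that fell held further genes beside those of germ cells and red cells, with no list of more than 1 listed gene among them. Lars2 (chr9:123366940-123462664), the mitochondrial leucyl-tRNA synthetase gene, had 44.8 FPKM in Control, 5.72 with ACE+ACE, 11.8 with ASP+ACE and 6.28 with IBU+ACE (-2.84). Chgb (chr2:132781278-132795079), a granin of neuroendocrine secretory granules, had 0.719, 0.115, 0.0809 and 0.0759 FPKM (-3.24). Apoa4 (chr9:46240696-46243529), an apolipoprotein of liver and gut, had 1.74, 0.438, 0.361 and 0.661 FPKM (-1.39). In each of these 3 genes Control was the high library and all exposed libraries were low. Chgb, the fallen gene of the neural and neural crest list, is under 1 FPKM in every library, and Apoa4, the fallen gene of the liver list, lies in a locus of 3 annotated genes. Prl3b1 (chr13:27242430-27249679), a placental lactogen, had 2.09 FPKM in Control and 0.576 in IBU+ACE (-1.86). It was the only listed gene of the placenta list. Alb and Afp, the defining genes of fetal hepatocytes, are not listed here. Alb had 52.6 FPKM in Control and 77.3 in IBU+ACE, and Afp had 130.2 and 112.6 FPKM. Other liver list genes have both values without being listed here. Ahsg (5.90 and 10.3 FPKM), Serpina6 (12.3 and 16.3), Vtn, Fga, Fgb, Ambp and Gc were higher in IBU+ACE. Apoa1 (18.3 and 17.8 FPKM) and Apob (4.68 and 4.24) were lower, so Apoa4 does not stand for the list. Cmah, the enzyme that makes the sialic acid Neu5Gc, had 7.71 FPKM in Control, 4.9999 in ASP+ACE and 4.80 in IBU+ACE (-0.68).

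Pseudogenes and short RNAs made up most of the other falls. Gm24146, annotated as a miscellaneous RNA of 321 nt, had 7.62 FPKM in Control, 1.25 in ASP+ACE and 1.55 in IBU+ACE (-2.30). Gm7125, a long intergenic RNA, had 12.5 FPKM in Control and 3.20 in IBU+ACE (-1.96). The processed pseudogenes Gm5611, Gm8822 and Rps2-ps13 had 2.64, 5.39 and 75.6 FPKM in Control and 0.602, 2.14 and 44.3 FPKM in IBU+ACE. Their reads may belong to near-identical genes elsewhere. Gm15181, an unprocessed pseudogene of 177 nt, was the only named transcript listed at 0 in Control, with 8.46 FPKM in IBU+ACE. Rprl3, an RNase P-like RNA gene, had 1489 and 2135 FPKM (0.52), the smallest rise in the table.

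Against the same Control library, 12 of the 185 transcripts are listed in all 3 exposed libraries. They share that library, so their values are set side by side and no agreement is drawn from them. Besides Lars2, Chgb, Apoa4, Hist1h3f and Hist1h4f, the 12 include 7 unnamed transcripts. The shortest, of 87 nt (chr1:136364885-136364971), had 11901 FPKM in Control, 1325 with ACE+ACE, 2944 with ASP+ACE and 1175 with IBU+ACE (-3.34), the largest fall among the 185. Those of 123 nt (chr1:102628205-102628327), 130 nt (chr6:3201436-3201565) and 437 nt (chr3:5860338-5860774) fell by 3.01, 2.50 and 2.69 on the log2 scale in IBU+ACE. In each of these 4 short transcripts, ASP+ACE lay between Control and the other exposed libraries, as it did for Lars2. A transcript of 122 nt (chr1:122357128-122357249) rose, with 17614 FPKM in Control and 33322, 29629 and 29288 FPKM in ACE+ACE, ASP+ACE and IBU+ACE. A transcript of 40803 nt (chr1:35567633-35608435) rose from the lowest Control level of the 12, with 0.0803, 0.525, 0.758 and 1.11 FPKM, and an unnamed transcript of 8523 nt on chromosome X (chrX:105949694-105958216) fell, with 0.912, 0.0227, 0.305 and 0.173 FPKM. At lengths near that of a read pair of 75 nt reads, FPKM depends strongly on the length used, and these levels should be read only within a row.

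**Figure D5:**
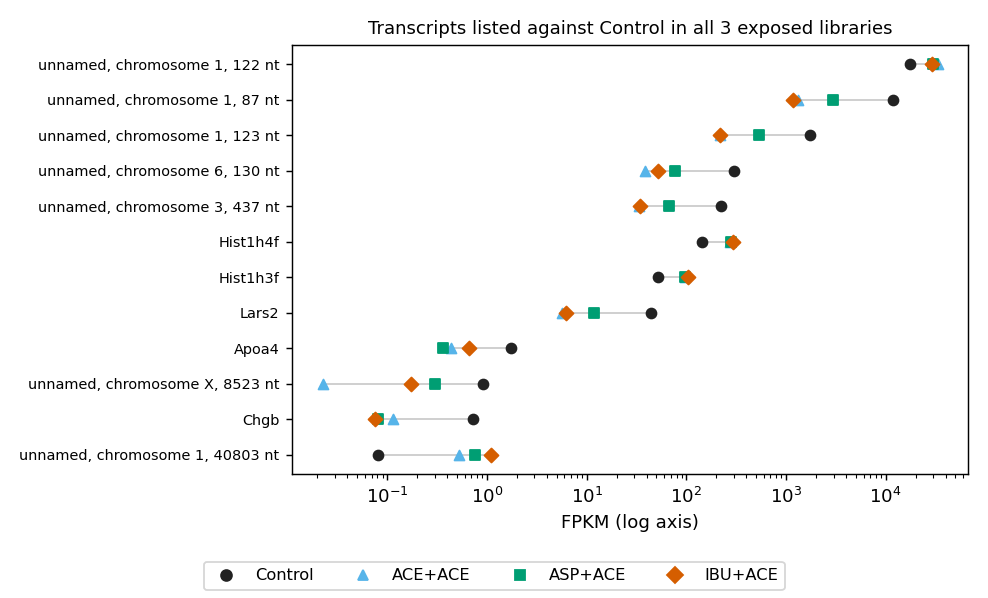
FPKM on a log axis, in all 4 libraries, of the 12 transcripts listed against Control for each exposed library, ordered by the Control level. Control (circles) is at 1 end of every row, as for Lars2 at 44.8 FPKM against 5.72 to 11.8 in the exposed libraries. The rows were chosen as listed against this same Control library, so its place is largely set by that choice.

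The 62 unnamed transcripts lay mostly between annotated genes (50), with 11 in introns and 1 over an exon of Gm17737. Their loci ran from 87 to 62897 nt, with a median of 1017 nt. Both values were under 1 FPKM for 49 of them. Those listed at 0 in Control numbered 23 and had between 0.322 and 0.760 FPKM in IBU+ACE, with a median of 0.469. Those listed at 0 in IBU+ACE numbered 6 and had between 0.352 and 1.05 FPKM in Control. No fold is given for either kind. A transcript of 5724 nt between genes (chr1:90886270-90891993) had 1.07 FPKM in Control and 0.332 in IBU+ACE (-1.69). Of the intronic transcripts 7 lie in Zfhx3, a homeobox gene of myogenic and neuronal differentiation, and 2 in Fgf12.

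Some members lie next to each other. Rows less than 100 kb apart on a chromosome form 16 clusters holding 40 rows, and in all 16 the rows go in 1 direction. Of all 185 listed rows 81.6% were higher, so nothing is read from the shared direction. The largest holds 6 unnamed rows in introns of Zfhx3 (chr8:108171211-108421038), all higher. The transcript of 10844 nt among them had 0.0226 FPKM in Control, 0.0118 with ACE+ACE, 0.0219 with ASP+ACE and 0.331 with IBU+ACE (3.87). Zfhx3 itself (chr8:108702588-108962846) had 1.58 FPKM in Control, 1.42 in ASP+ACE and 4.22 in IBU+ACE (1.42). Twist1 forms a cluster with 2 unnamed rows beside it (chr12:33957671-34013547), of which that of 9246 nt had 0.133, 0.130, 0.129 and 0.508 FPKM (1.93). Further clusters are those of Kera with Lum, Krt14 with Krt15, Hoxd13 with Gm28309, the histone genes of chromosome 13, and Hbb-y with Hbb-bh1. Rows of 1 cluster can come from 1 transcribed unit or share its reads, and overlapping loci such as Gm38042 and Zfhx3 hold the same interval, so clustered rows are not independent.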

How the data were processed

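Total RNA depleted of ribosomal RNA was sequenced as stranded paired reads of 75 nt, per the labels' protocols. Per the submitters' processing notes, the tools included Cufflinks 2.2.1, TopHat2 2.1, Bowtie2 2.2.6 and SAMtools 1.3, with bcl2fastq 2.17 and FastQC, on the build GRCm38; settings were not given. Each table the authors deposited compares 2 libraries and, per the file headers, holds assembled transcripts, loci, p-values, q-values, the values of both libraries and their log2 fold change. The header names no unit; the deposited values are taken as FPKM from the Cufflinks layout. All rows are marked significant, so uncalled transcripts were not analysed here. The library called EtOH inside the tables was taken as Control, the remaining library.

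Reading and counting used numpy 2.4.6 and pandas 2.3.3 under Python 3.11.15, and plotting used matplotlib 3.10.9. Decimal commas were turned into points, and 1 was added to each start. All value columns matched a library. The reader was tested on simulated data: of 200 rows, 120 higher, 60 lower and 20 with a 0 were recovered. Values present in several tables never disagreed. Loci were laid over GENCODE M21, where 48 of the 185 span more than 1 gene, and 118 of 123 symbols were found at their locus. Promoters are RefSeq sequences.

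The members and gene lists were chosen with earlier results of these data known. Every listed gene of a list is described, with the 15 largest changes per direction among rows reaching 1 FPKM in a library, those listed in all 3 exposed libraries; transcripts listed at 0 are given by range, and other named genes were added after their values were seen. A few named genes are not reported here, and groups made after values were seen do not hold them. No test was run, since there is 1 library per group. Alternatives were a minimum of 1 FPKM, named rows only, loci with at most 1 annotated gene, leaving out small RNAs and loci of 200 nt or less, and adding 0.1 or 1 FPKM.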

Additional observations from a re-analysis of the deposited data

How the results depend on the processing

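No alternative reversed a result, but none could: they drop rows or add the same 0.1 or 1 FPKM to both values. That 122 of 122 named folds kept their direction is therefore no check of it. Only the counts and the sizes of folds could move. The 151 higher transcripts became 104 to 148 under the alternatives. The 34 lower ones became 23 with a minimum of 1 FPKM and 19 among named rows. The 98 transcripts at least 2-fold higher became 46 with 1 FPKM added. The 18 at least 2-fold lower became 10 among named rows and 10 with 1 FPKM added. The median log2 fold change of the higher transcripts, 1.71, became 1.64 with a minimum of 1 FPKM, 1.67 among named rows, 1.72 with at most 1 gene per locus, 1.72 without small RNAs, 1.62 with 0.1 FPKM added and 0.78 with 1 FPKM added. That of the lower ones, -1.36, became -1.05 among named rows, -1.77 with at most 1 gene per locus, -1.14 without small RNAs, -1.79 with 0.1 FPKM added and -0.76 with 1 FPKM added. Of 40 list counts under alternatives, 8 moved by over 1.5 times. With at most 1 gene per locus the higher genes of the male germ cell list went from 4 to 2, of the Sertoli list from 2 to 1, of the interstitial list from 3 to 1, of the signalling list from 7 to 4, and of the mast cell and sex chromosome lists from 1 to 0. The lower gene of the liver list was lost in the same way, and that of the neural list with a minimum of 1 FPKM. The sizes of folds thus depend on low values, and 58 of the 185 transcripts are under 1 FPKM in both libraries. No replicate could be left out, since each group is 1 library. No paired analysis was possible because each group has 1 library and the groups share fewer than 2 replicate numbers.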

Other observations

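A number of named genes outside the gene lists rose with no group of their own, and they were chosen for mention after their values were seen. Tac2, which encodes the neuropeptide neurokinin B, had 2.101 FPKM in Control, 1.27 with ACE+ACE, 1.80 with ASP+ACE and 9.25 with IBU+ACE, a log2 fold change of 2.14. The values below follow the same order of libraries. Lrig3, a membrane protein of the leucine-rich repeat family, had 4.001, 3.91, 3.87 and 10.6 FPKM (1.41). Tmem132c had 1.46, 1.39, 1.59 and 5.33 FPKM (1.87). In these 3 genes the libraries other than IBU+ACE lay close together or, for Tac2, below 2.2 FPKM. Serinc2, of the serine incorporator family, had 1.51, 2.09, 2.60 and 5.67 FPKM (1.91), with Control the lowest library. The cadherin-family gene Pcdh10 had 0.352, 0.378, 0.329 and 1.41 FPKM.

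Further genes chosen for mention after their values were seen are annotated as other than protein-coding. Gm13111, annotated as antisense, had 0.103, 0.0822, 0.106 and 1.61 FPKM (3.97). Miat, a long intergenic RNA in a locus of 6 annotated genes, had 0.281 FPKM in Control, 0.186 in ASP+ACE and 2.17 in IBU+ACE (2.95). Gm37024 and Gm38197, whose annotation class TEC leaves the type of gene undecided and which share a locus with Mecom and hold the same interval, had 0.485 and 0.460 FPKM in Control and 2.45 and 2.21 FPKM in IBU+ACE.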
